A study of Mus musculus with 11 samples.

Results

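The baseline transcriptome of tracer-labelled trigeminal ganglion neurons was described in 5 sham libraries of the 11 in the series. The members were all libraries whose titles name sham mice, 3 from females (sham female 1, 2 and 3) and 2 from males (sham male 1 and 3). The other 6 libraries, from mice bearing the oral carcinoma line MOC1, were not used, so nothing here compares tumour with sham. The sham mice had been injected with DiI, a lipophilic dye that axons carry back to the cell body, and both trigeminal ganglia of a mouse were taken and dissociated. Cells positive for DiI were sorted by fluorescence into TRIzol, with gates set on naive mice and on sham mice that carried the dye. The labels give no strain, age, dye site or sham procedure, and leave open which animals or pools the libraries stand for. Spread between libraries may therefore be partly technical, and p-values measure only the spread between these samples.

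The trigeminal ganglion holds the cell bodies of sensory neurons that serve the face and mouth, each wrapped by satellite glia. Nociceptors, which report damage, are usually divided into peptidergic cells that release calcitonin gene-related peptide (CGRP) and substance P, and nonpeptidergic cells that carry Mrgprd and P2X3. Other classes sense cold through Trpm8, itch through receptors and peptides such as Il31ra and Nppb, or light touch through large myelinated axons rich in neurofilament.

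Each sham library held between 15510643 and 16703797 counts in genes, and 16420 to 18114 genes had at least 1 count. Of 55401 gene rows, 12531 reached 1 CPM (a count per 1000000 counts in genes) in all 5 libraries and 33219 were at 0 in all 5. Of 704 genes in the 49 lists used here, 451 reached that level. A count of 0 in all 5 libraries allows a level of up to 0.0367 CPM (3 counts over the 5 libraries), and such limits cover counting error only. Values are CPM when a gene is followed across libraries. Where genes are ranked, they are TPM, counts per kilobase of merged exons scaled to the same total in each library. Means are given ± SD over the 5 libraries (n = 5), and values for single libraries follow the order female 1, 2 and 3, male 1 and 3. Neighbours in an order are called separated when the lowest library of the upper gene lay above the highest library of the lower gene. The coefficient of variation (CV) is SD over mean of CPM.

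The 5 genes taken as markers of the sorted cells were all present, and the glial gene Apoe led them per length. Calca (chr7:114631478-114636357 in GRCm38), which encodes CGRP alpha, had 981, 1021, 1130.1, 1039.8 and 961 CPM. Scn10a (chr9:119608456-119719322), the sodium channel Nav1.8 of nociceptors, had 1932, 1989, 1849, 1991 and 2130.2 CPM. Trpv1 (chr11:73234292-73261242), the capsaicin and heat receptor, had 188, 176, 178, 219 and 194 CPM. In these 3 neuronal genes no library lay apart from the rest, and the CVs were 0.0639, 0.052 and 0.0904. Nefh (chr11:4938754-4948064), the heavy neurofilament of myelinated neurons, had 569, 920.5, 869.9, 862 and 759 CPM, with female 1 lowest. Apoe (chr7:19696109-19699188), a lipoprotein gene of satellite glia, had 4207, 5364, 4511, 5284 and 4984 CPM, again with female 1 lowest. Per length the order was Apoe at 9422 ± 973 TPM, Calca at 2519.5 ± 102, Scn10a at 1028 ± 71.6, Nefh at 822 ± 133 and Trpv1 at 215 ± 21.4, and 3 of the 4 neighbouring pairs were separated, the exception being Scn10a over Nefh.

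Satellite glia genes were abundant in every sham library, although the tubes were labelled as neurons, and their sum exceeded that of the panel of general neuronal genes only with Apoe included. The 19 pan-neuronal genes, all at 1 CPM or more in all 5 libraries, summed to 8209, 8631, 9792, 9949.9 and 9245 CPM. The 15 satellite glia genes, also all at 1 CPM or more, summed to 9686, 11791, 10152, 10433 and 10474 CPM. The glial sum was between 1.04 and 1.37 times the neuronal sum, highest in female 2, and the 2 sets are of different genes, so the ratio is no ratio of cells. Apoe alone held 43.4 to 50.6% of the glial sum. The other 14 glial genes summed to 5479, 6427, 5641, 5149 and 5490.4 CPM, below the neuronal sum in every library, at 0.518 to 0.745 times its value. Summed per length the means were 13810.4 TPM for the neuronal genes, 16676 TPM for the 15 glial genes and 7254 TPM for the 14 without Apoe. In bulk samples more cells of a type and more RNA per cell cannot be told apart, and how glial RNA came into the sorted tubes was not tested. Among the neuronal genes Uchl1, a ubiquitin hydrolase abundant in neurons, ranked first at 3372 ± 296 TPM, followed by the peripheral intermediate filament Prph at 2296 ± 202 and neuronal tubulin Tubb3 at 2052 ± 260.4. Stmn3 and Stmn2, regulators of microtubules, stood at 1153 ± 82.5 and 843 ± 83.4 TPM, with Avil, an actin-binding protein of sensory neurons, between them at 1118 ± 81.2. The growth-associated protein Gap43, the vesicle fusion protein Snap25 and the vesicle protein Syn1 were near each other at 529 ± 79.4, 515 ± 51.4 and 514 ± 67.2 TPM and were not separated. Of the glial genes Apoe was followed by the fatty acid binding protein Fabp7 at 2598 ± 447 TPM, the matrix protein Sparc at 1066 ± 99.3, the calcium-binding S100b at 792 ± 184 and glutamine synthetase Glul at 658 ± 87.9. The endothelin receptor Ednrb and Mmd2 stood at 467 ± 33.4 and 230.5 ± 12 TPM. The potassium channel Kcnj10 (Kir4.1), a defining channel of satellite glia, reached 226 ± 24.1 TPM and the glial transcription factor Sox10 104 ± 20.9. Fabp7 had 577, 932, 889, 706 and 829 CPM and S100b 201, 382, 310.5, 243 and 287 CPM, both lowest in female 1 and highest in female 2.

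Schwann cell genes were found in every library, and some genes of myelin were low. The 13 genes of myelinating Schwann cells summed to 1268, 977, 1039, 1060.4 and 1066 CPM, highest in female 1. Pmp22, a myelin protein also made by other cells, led at 877 ± 55.5 TPM. Mal, a myelin proteolipid that endothelial and epithelial cells can also make, had 319.9, 133, 142, 158 and 177 CPM, with female 1 above the other 4. Myelin basic protein Mbp stood at 79.4 ± 8.46 TPM and the myelin transcription factor Egr2 at 48.7 ± 7.42. The myelin adhesion protein Mag had 1.04, 0.121, 0, 0.0645 and 0 CPM, and the junction gene Cldn19 and the myelin lipid enzyme Fa2h had 0 to 2.87 and 0 to 1.47 CPM. All 3 were highest in female 1. Of the genes of non-myelinating and immature Schwann cells, the p75 neurotrophin receptor Ngfr led at 447 ± 84 TPM, though neurons make it too, and the channel Scn7a followed at 369 ± 46.8. The neuregulin receptor Erbb3 had 85.9 ± 16.7 TPM, Sox2 83.9 ± 19.9 TPM and Foxd3 29.4 ± 3.99 TPM, all factors of the glial lineage.

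**Figure D1:**
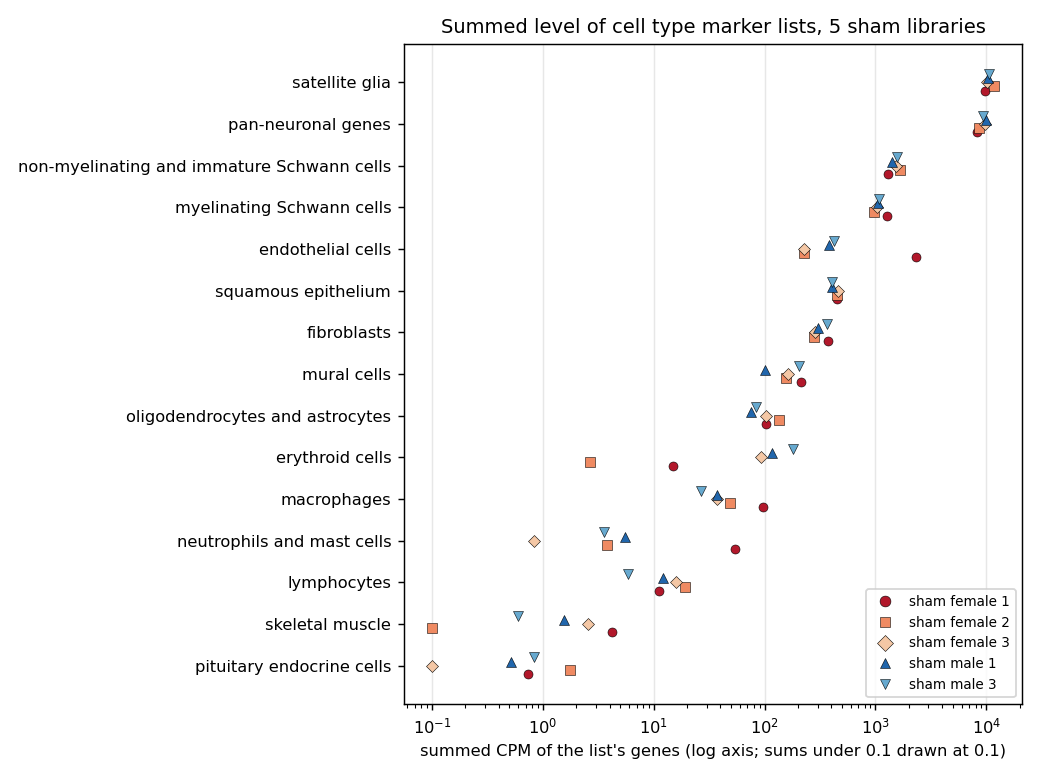
Summed CPM (log axis) of each marker list in the 5 sham libraries, where each point is a library and lists are ordered by mean sum. Satellite glia and pan-neuronal genes lie within 8209 to 11791 CPM in every library, whereas the endothelial sum is 2339 CPM in sham female 1 and 226 to 422 CPM in the other 4.

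Vascular RNA separated sham female 1 from the other libraries. The 14 endothelial genes summed to 2339, 226, 227, 385 and 422 CPM, with a mean of 719.8 ± 909.7 over 5 libraries and of 315 without female 1. All 14 were highest in female 1. Flt1, a receptor for vascular endothelial growth factor, had 530.4, 50.3, 28.9, 75.2 and 89.2 CPM. The tight junction gene Cldn5 had 89, 7.97, 9.58, 19.1 and 19 CPM and the endothelial cadherin Cdh5 197, 12.1, 16.6, 21.9 and 28 CPM. The glucose transporter Slc2a1 and the organic anion transporter Slco1a4, both of barrier endothelium, had 351, 55.2, 52.3, 70.2 and 71.2 CPM and 359.9, 27.8, 43.6, 64.1 and 62.9 CPM. The adhesion molecule Pecam1 had 152, 7.55, 9.22, 17.7 and 23.6 CPM, von Willebrand factor, Vwf, 112, 11.2, 9.7, 18.2 and 28.7 CPM and the angiopoietin receptor Tek 70.8, 7.01, 8.44, 11.5 and 17.2 CPM. Female 1 thus stood above every other library in each of them, and the other 4 lay much closer to each other. Of the 11 mural cell genes 7 were highest in female 1, but not the leading ones. Rgs5, a pericyte gene, had 135, 76, 102, 46.8 and 142 CPM, lowest in male 1, and Pdgfrb, the pericyte growth factor receptor, had 30.7, 42.8, 30.5, 34.1 and 41.7 CPM. Acta2 and Des, the actin and desmin of smooth muscle, were at 0 to 0.733 and 0 to 0.61 CPM. Fibroblast genes were led by Gsn, an actin-severing protein that other cells also make, at 202 ± 9.6 TPM, and by the lipocalin Apod at 60.8 ± 29.1. The collagen Col1a2 had 75.4, 69.9, 64.9, 75.1 and 116 CPM, highest in male 3, the proteoglycan Dcn 36.1, 15.1, 8.98, 19.6 and 16 CPM and the fibroblast receptor Pdgfra 3.91, 2.3, 4.19, 5.48 and 3.95 CPM, while dermatopontin, Dpt, was at 0 in all 5.

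Immune cell genes were low, and the level of haemoglobin differed widely between libraries. The 13 macrophage genes summed to 97.4, 48.4, 36.9, 37.3 and 26.7 CPM and 12 of them were highest in female 1. Lyz2, lysozyme, had 30.6, 10.3, 10.2, 6.64 and 4.91 CPM, Cd74, the invariant chain of MHC class II, 23.3, 16.3, 13.5, 8.96 and 7.67 CPM and the complement gene C1qa 4.82, 3.14, 1.08, 2 and 2.7 CPM. All 3 were highest in female 1. Cx3cr1, Aif1 and Tyrobp, defining genes of macrophages, had 0 to 1.1, 0 to 1.59 and 0 to 2.38 CPM. The neutrophil genes S100a9 and S100a8 had 33, 1.03, 0, 2.71 and 0.839 CPM and 17.4, 1.45, 0, 1.1 and 1.74 CPM, again highest in female 1. T cell genes Cd3e, Cd3g, Cd8a and Cd2 and the B cell gene Ms4a1 were at 0 in all 5 libraries, whereas the immunoglobulin heavy chain Ighm had 10.01, 17.4, 15.4, 11.9 and 5.81 CPM. Haemoglobin Hbb-bs, whose near-identical copies make its count uncertain, had 8.67, 2.11, 70.8, 84.6 and 133 CPM, low in females 1 and 2. Pituitary hormone genes, which would mark the gland that lies beside the ganglion, were near the floor: Gh, Prl and Pomc had 0 to 0.779, 0 to 1.15 and 0 to 0.604 CPM and Cga was at 0 in all 5. Keratins Krt5 and Krt14 of squamous epithelium, the oligodendrocyte genes Mog and Olig2, and the muscle genes Myh1 and Myh4 were at 0 in all 5. The epithelial cadherin Cdh1 was an exception within its list, at 446, 444, 449, 398 and 396 CPM, while the epithelial gene Epcam had 0 to 1.32 CPM. Aqp4, a water channel of astrocytes that satellite glia can also make, had 64.6, 91.6, 79.8, 46.3 and 63.3 CPM, beside the astrocyte filament Gfap at 0.0599 to 0.903 CPM.

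The genes that took the most counts were mitochondrial, cytoskeletal and glial. By mean CPM the first 10 were mt-Co1, mt-Cytb, Map1b, Apoe, CT010467.1, mt-Nd1, mt-Nd5, Prune2, Hsp90ab1 and mt-Nd2, and the 10 highest genes of a library held between 4.91 and 5.94% of its gene counts. Map1b, a microtubule-associated protein of axons, had 5690.1, 6602, 5651, 5848 and 6493 CPM and Hsp90ab1, a constitutive chaperone, 3084, 3164, 3325, 3288 and 3284 CPM. Prune2, a gene of the nervous system, had 3359.8, 3416, 2943, 3137 and 3754 CPM. CT010467.1 is annotated as ribosomal RNA and had 6393, 4267, 3406, 4551 and 5042 CPM, highest in female 1. Mitochondrially encoded genes held 3.03 to 4.54% of gene counts, and mt-Co1, a subunit of cytochrome oxidase, had 11195, 14534, 16505, 11845 and 12146 CPM. Other genes of that oxidase and of ATP synthase, mt-Co3, mt-Atp6 and mt-Atp8, were at 0 in all 5 in this counting, in which multimapping reads are assigned to no gene. Ribosomal protein genes, a family with many near-identical pseudogenes, held 0.328 to 0.364% of gene counts under the same rule.

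Most transcription factors that define sensory neurons were present, and most Hox genes were not. Prdm12, required for nociceptor development, ranked first at 328 ± 35.7 TPM, followed by the LIM factor Isl2 at 270.3 ± 32.5, the POU factor Pou4f1 (Brn3a) at 182 ± 18.6, Prrxl1 at 172 ± 29.5 and Isl1 at 119.9 ± 19.4. Prdm12 and Isl2 were not separated, nor were Pou4f1 and Prrxl1. Pou4f1 had 189, 179.8, 208, 230.4 and 218 CPM. Tlx3 and Tlx2 stood at 86.8 ± 7.86 and 70.4 ± 22.2 TPM, and Runx1, which directs the nonpeptidergic fate, at 51.4 ± 6.97. Of the 21 factors found, 16 reached 1 CPM in all 5 libraries and 3 stayed under it in all 5. Among 39 Hox genes, which pattern the trunk and are silent in much of the head, 2 reached 1 CPM in all 5 libraries and 35 stayed under 1 CPM in all 5. Hoxd1, known from nociceptors, was the exception at 19.5, 22.6, 21.5, 21.1 and 25.5 CPM, and Hoxd8 had 15.5, 4.35, 1.74, 5.42 and 5.33 CPM, highest in female 1.

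The neuron classes differed in how evenly their markers were found, and by median CV nociceptor genes were the most even. Level differed too, with a median gene at 202 CPM in the peptidergic, 176 in the nonpeptidergic and 10.1 in the itch list. Those medians cover all members, whereas the CVs cover members at 10 CPM or more, 9 peptidergic, 15 nonpeptidergic and 6 itch genes. Over all genes the median CV was 0.154 at 10 to 100 CPM and 0.0891 at 100 to 1000 CPM. The part that level had in the order of classes was not tested. All 12 peptidergic and all 15 nonpeptidergic markers reached 1 CPM in every library, and the class sums lay at 2881, 2665, 2829, 2767 and 2534 CPM and 5246, 4783, 5415, 5392 and 5672 CPM. After Calca, the peptidergic markers ran from Tac1, the substance P precursor, at 515 ± 75.3 TPM through the PACAP precursor Adcyap1 at 269.6 ± 57, Trpa1 at 236 ± 22.1 and Trpv1 at 215 ± 21.4 to the artemin receptor Gfra3 at 212 ± 28.9. Nonpeptidergic markers were led by Scn11a, the sodium channel Nav1.9, at 978 ± 73.1 TPM, the complement regulator Cd55 at 629.6 ± 71.8 and the GDNF-family receptor Ret at 629 ± 60.8. The ATP-gated channel P2rx3 had 294, 295, 287, 317 and 321 CPM and the receptor Mrgprd 320, 268, 314, 312 and 322 CPM, with overlapping levels per length of 449.5 ± 29.4 and 404 ± 33.4 TPM. Plxnc1, a semaphorin receptor, the lysophosphatidic acid receptor Lpar3 and the neurturin receptor Gfra2 followed at 345 ± 21.1, 216 ± 19.1 and 206 ± 17.4 TPM. Mrgprd exceeded Trpv1 per length in every library, by 1.67 to 2.06 times. Receptors of smaller Mrgpr populations were less even. Mrgprb4 had 8.06, 34.1, 38.3, 17.6 and 16.7 CPM, lowest in female 1, and Mrgpra3, a chloroquine receptor, 8.49, 10.7, 14.7, 10.8 and 22.8 CPM, highest in male 3. Both belong to a cluster of similar genes, so reads that match several of them are missing from these counts.

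Markers of the itch class that makes natriuretic peptide and somatostatin had the highest median CV of the classes. Nppb, the natriuretic peptide precursor, had 1.1, 1.87, 1.44, 9.35 and 8.69 CPM, and somatostatin, Sst, 0.977, 0.362, 1.26, 9.54 and 5.99 CPM. The interleukin-31 receptor Il31ra had 15.7, 7.91, 13.4, 46.7 and 53.3 CPM, the leukotriene receptor Cysltr2 3.54, 4.35, 8.08, 18.4 and 16.3 CPM and the serotonin receptor Htr1f 3.24, 1.39, 0.539, 9.48 and 6.11 CPM. Neurotensin, Nts, had 1.22, 2.42, 3.17, 35.1 and 8.15 CPM. In each of these 6 genes both male libraries lay above all 3 female libraries, and Nts was highest in male 1 by a wide margin. Jak1, a kinase that most cells make, had 353, 355, 342, 479 and 451 CPM with the same order, while Osmr, the partner of Il31ra, had 61.3, 35.9, 39.3, 81.4 and 57.8 CPM and overlapped between the sexes, as did the prostaglandin receptor Ptgdr at 59.4 to 77.2 CPM. The test of this difference is given with the comparison of the sexes.

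Markers of cold, touch and myelinated neurons spanned a wide range of levels. Trpm8, the cold and menthol receptor, had 417, 290, 459, 344 and 198 CPM, with male 3 lowest and female 3 highest. Gpr26, Foxp2 and Cdh8, other markers of cold neurons, had 144, 104, 149.7, 97.7 and 81.2 CPM, 12.9, 7.67, 28.3, 13.8 and 11.3 CPM and 26.9, 18.1, 31.1, 27.5 and 20.8 CPM, and all 3 were highest in female 3. Female 3 was thus highest in all 4 genes, and male 3 lowest in Trpm8 and Gpr26. Penk, the enkephalin precursor of some of these cells, had 0.305, 2.23, 0, 0.193 and 0 CPM. Among markers of C-fibre low-threshold mechanoreceptors, Piezo2, the touch channel also found in other mechanoreceptors, had 515, 544, 486, 575 and 599.9 CPM, while the restricted genes were lower, with tyrosine hydroxylase Th at 8.03 to 12.2 CPM, Tafa4 at 14.7 to 38.7 CPM and the glutamate transporter Slc17a8 at 8.03 to 13.5 CPM. Myelinated neurons were marked by neurofilaments: Nefl reached 2331 ± 184 TPM, Nefm 1060.4 ± 124 and Nefh 822 ± 133, and the light chain made up 55.4% ± 2.55 of the 3 per length. The BDNF receptor Ntrk2 had 479, 566, 441, 490.3 and 569.9 CPM and the NT-3 receptor Ntrk3 154, 184, 139, 164 and 214 CPM. Parvalbumin, Pvalb, a gene of proprioceptors, had 3.6, 4.89, 15.4, 2.77 and 6.71 CPM, highest in female 3, and Spp1, osteopontin, 12.3, 6.16, 8.98, 11.6 and 14.4 CPM.

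**Figure D2:**
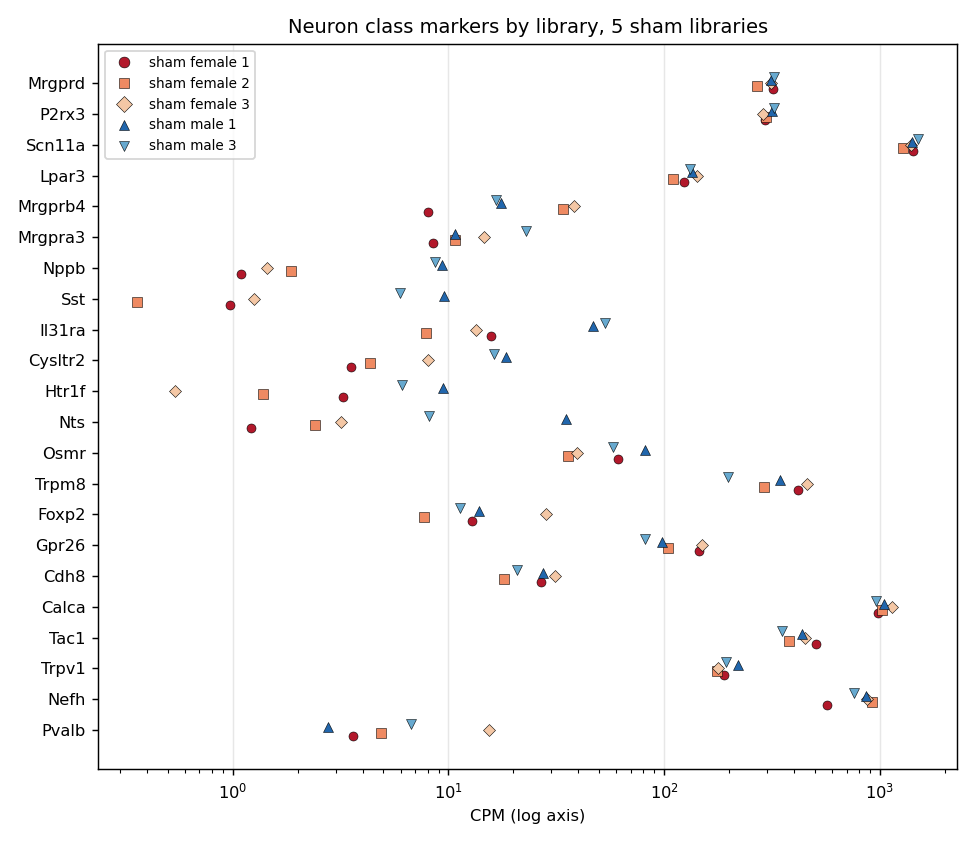
CPM (log axis) of neuron class markers in the 5 sham libraries, with each point a library. Mrgprd, P2rx3, Scn11a and Calca lie close together across libraries, whereas Nppb, Sst, Il31ra, Cysltr2, Htr1f and Nts are higher in both male libraries than in the 3 female ones.

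Among precursors of released peptides, CGRP alpha dominated. Calca accounted for 61.2% ± 2.18 of the summed level per length of 33 peptide genes, Tac1 for 12.5% ± 1.44, Calcb for 8.02% ± 0.858, Adcyap1 for 6.53% ± 1.28 and neuromedin B, Nmb, for 6.02% ± 0.242. The share of the next gene, galanin (Gal), was 1.91% ± 0.276. Per length Calca stood at 2469, 2494, 2676, 2551 and 2407 TPM and Tac1 at 628, 456, 526, 530.1 and 436 TPM, so that Calca exceeded Tac1 by 3.93 to 5.52 times in each library. Calcb, which encodes CGRP beta, had 98.5, 89.7, 127, 91.9 and 99.3 CPM, and Calca exceeded it by 6.68 to 8.55 times per length. Because Calca also gives rise to calcitonin by splicing, gene counts do not separate the 2 products. Adcyap1 had 321, 189.8, 242, 226 and 249 CPM, highest in female 1, and Nmb 46.9, 47.2, 50.9, 46.4 and 46.2 CPM, with a CV of 0.0409. Per length Calcb and Adcyap1, and Adcyap1 and Nmb, overlapped between libraries. Nmb shares 20.6% of its exon bases with another gene on the same strand, and reads there may not be counted. Galanin had 18.7, 12.6, 15.2, 15.5 and 13 CPM, the stimulant-responsive peptide Cartpt 11.7, 14.3, 18.4, 12.2 and 11.6 CPM and the neurotrophin Bdnf 44, 36.2, 45.4, 67.6 and 38.7 CPM. At the other end, Vip, Pnoc, Iapp, Ucn, Avp and Oxt were at 0 in all 5 libraries. Npy, Grp and Cck each had counts in a single library, with ranges of 0 to 0.451, 0 to 0.183 and 0 to 0.299 CPM. Of the 41 precursors and granins listed, 18 reached 1 CPM in all 5 libraries and 19 stayed under 1 CPM in all 5.

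Genes of dense-core vesicles were abundant. The granins Scg3 and Scg2, sorting proteins of peptide vesicles, reached 2053 ± 172 TPM and 849 ± 47.9, and Calca exceeded Scg3 by 1.11 to 1.39 times. Scg5, Pcsk1n, Chga, Chgb and Vgf, further granins and related proteins, lay from 158 ± 21.1 TPM for Scg5 down to 99.1 ± 28 TPM for Vgf, and no neighbouring pair among them was separated. Of the processing enzymes, carboxypeptidase E, Cpe, led at 1187 ± 77.6 TPM, followed by cathepsin L, Ctsl, at 630.3 ± 44.7 and prohormone convertase 2, Pcsk2, at 133 ± 3.22. Pcsk2 had 249.9, 253, 255, 263 and 249 CPM, a CV of 0.022. It exceeded Pcsk1, the other neuronal convertase, by 3.95 to 6.36 times per length. Pam, which amidates CGRP and substance P, stood at 99.7 ± 17.2 TPM and was highest in female 1. All 8 processing enzymes listed reached 1 CPM in every library.

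**Figure D3:**
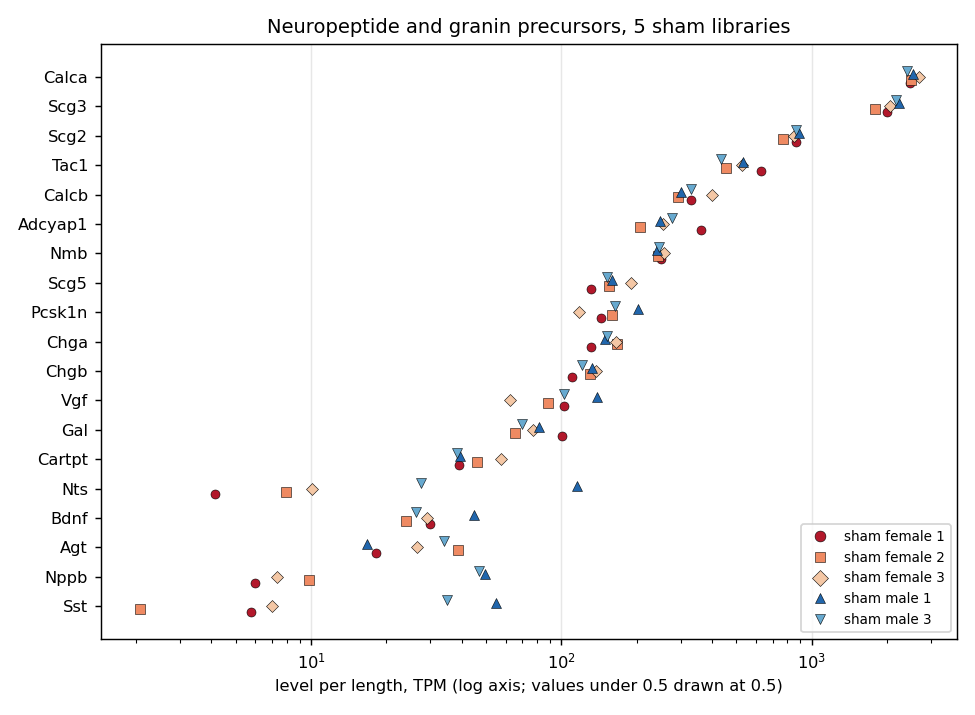
Level per length in TPM (log axis) of the 19 neuropeptide and granin precursors with the highest means, with each point a sham library. Calca lies above Scg3, Scg2 and Tac1 in every library, and Nts, Nppb and Sst at the lower end are higher in both males than in the females.

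Genes of glutamate release led the transmitter genes. Slc17a6, the vesicular glutamate transporter VGLUT2, had 303, 284, 365, 308 and 319 CPM and made up 89.9% ± 2.77 of the 3 vesicular glutamate transporters per length. Slc17a7 (VGLUT1) had 12.7, 23, 14.1, 20.7 and 40.01 CPM, highest in male 3. Gad2, Slc32a1, Slc18a3 and Chat, the genes of GABA and acetylcholine release, were at 0 in all 5 libraries, and the GABA-synthesising enzyme Gad1 had 0 to 1.33 CPM.

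Nociceptor sodium channels led the voltage-gated channels. Scn10a and Scn11a stood at 1028, 1027, 925, 1033 and 1128 TPM and 1020, 881, 936, 982 and 1070.3 TPM, and their ratio ran from 0.988 to 1.17, so neither was above the other in all 5 libraries. Of the 9 alpha subunits per length, Scn10a made up 43.3% ± 1.36, Scn11a 41.2% ± 1.4 and Scn9a (Nav1.7), the channel of inherited pain insensitivity, 11.7% ± 0.49. Scn8a (Nav1.6) and Scn1a (Nav1.1), typical of myelinated neurons, made up 1.65% ± 0.314 and 1.3% ± 0.156. The sodium-sensing Scn7a, which glia also make, stood at 369 ± 46.8 TPM and is not counted in these shares. Of the beta subunits, Scn4b ranked first at 233 ± 35.8 TPM, above Scn3b at 150.4 ± 14.3. All 15 sodium channel genes reached 1 CPM in every library.

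The 3 chemical and thermal TRP channels of nociceptors and cold neurons held most of the TRP level. Trpm8, Trpa1 and Trpv1 made up 25.2% ± 5.73, 20.3% ± 1.11 and 18.5% ± 2.36 of the 26 TRP genes per length. Trpa1, the irritant receptor, had 274, 239.7, 256, 228 and 219 CPM. The order of the 3 was not fixed. Trpm8 exceeded Trpa1 in 4 libraries and fell below it in male 3, where their ratio was 0.814, and the ratio of Trpv1 to Trpa1 ran from 0.796 to 1.11. Trpv2 stood lower at 64.2 ± 6.2 TPM. Trpm7, Trpc6 and the heat-sensitive Trpm3 overlapped at 37.2 ± 4.99, 33.1 ± 4.9 and 30.4 ± 2.69 TPM. The osmosensitive Trpv4 had 4.21, 1.09, 0.718, 1.03 and 0.659 CPM, highest in female 1, and Trpv3 was at 0 in 2 libraries. Trpc2 was at 0, but all of its exon bases are shared with another gene, so its count could not be assigned.

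Most potassium, calcium and pacemaker channel genes were found in every library. Of 46 potassium channel genes 43 reached 1 CPM in all 5 libraries, of 18 calcium channel genes 14 and of 4 pacemaker genes all 4. At 10 CPM or more their median CVs were 0.142, 0.113 and 0.121, beside 0.136 over all genes at that level. The auxiliary subunits Kcnab2 and Kcnip4 led at 517 ± 21.2 TPM and 322 ± 44.8, above the delayed rectifiers Kcna2 and Kcna6 at 179.6 ± 17 and 177 ± 20.4 and the A-type channel Kcnd1 at 168 ± 26.1. The sodium-activated Kcnt1 followed at 104 ± 9.98 TPM. N-type calcium channel Cacna1b, a target of analgesic conotoxin, made up 49.6% ± 1.84 of the 10 pore subunits per length, ahead of P/Q-type Cacna1a at 18.4% ± 1.49 and L-type Cacna1c at 15% ± 0.33. The T-type Cacna1h made up 10.7% ± 0.779. Cacna2d1, the alpha2delta subunit bound by gabapentin, had 520.5, 461, 471, 502 and 491 CPM and made up 75.1% ± 1.87 of its family. Cacnb3 led the beta subunits with 60.6% ± 3.34. Among pacemaker channels Hcn2, linked to inflammatory pain, made up 50.5% ± 4.3 per length. Hcn3 stood at 31.8 ± 5.59 TPM.

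**Figure D4:**
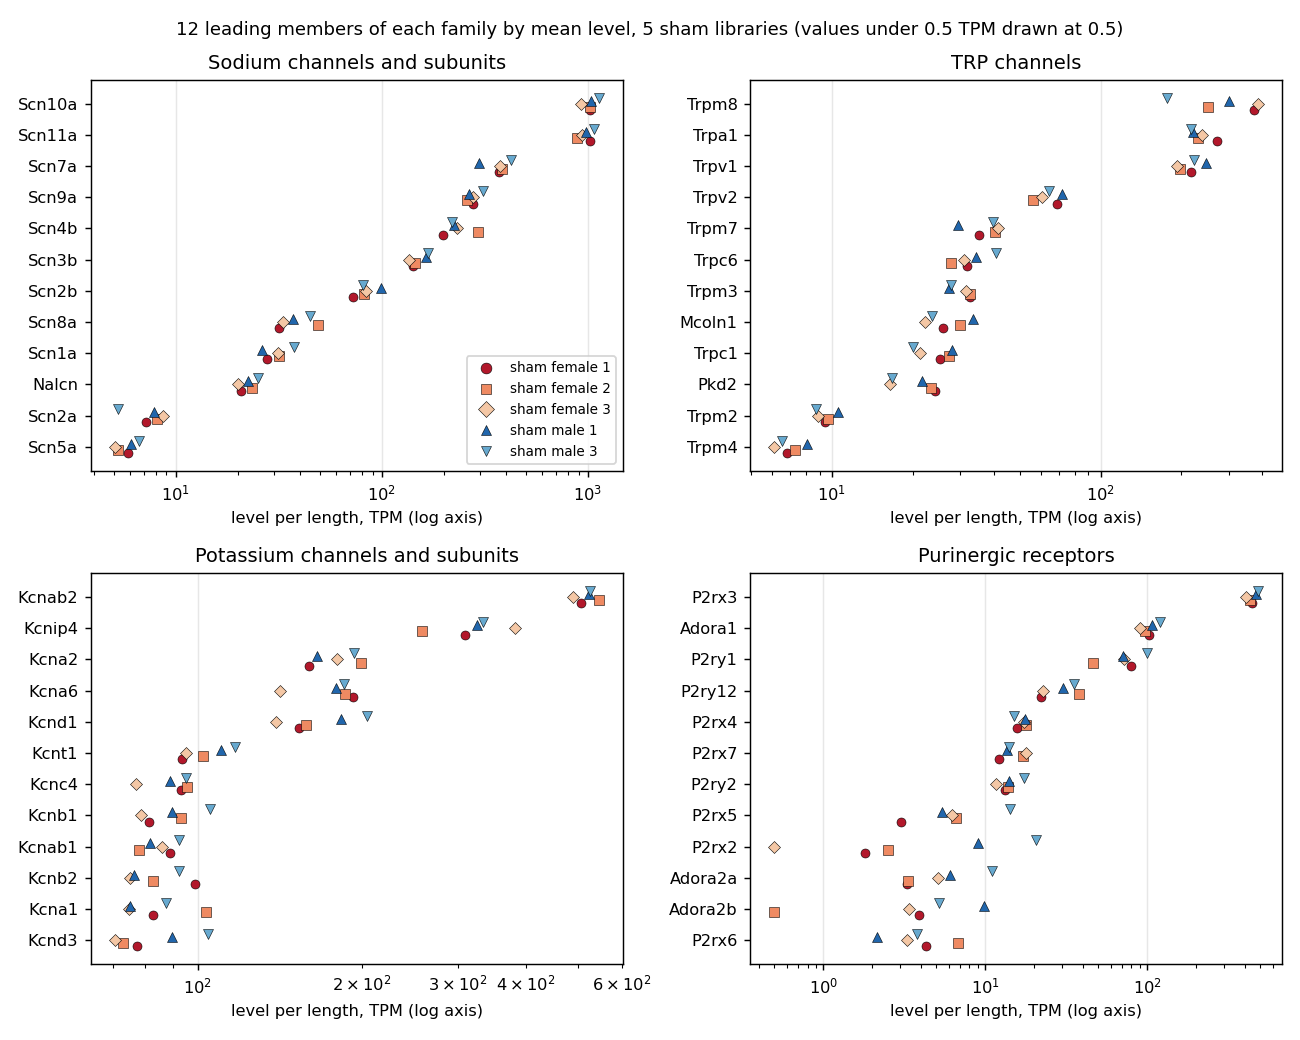
Level per length in TPM (log axis) of 12 leading members of each of 4 channel and receptor families, with each point a sham library. Scn10a and Scn11a overlap at the top of the sodium channels, Trpm8 spreads most of the leading TRP channels, and P2rx3 lies far above the other purinergic receptors.

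Piezo2, Asic3 and P2rx3 had the highest levels per length among genes of mechanical, acid and ATP sensing, and of the 3 P2rx3 was separated from the next gene. Piezo2 stood at 131 ± 12.9 TPM and overlapped with the osmosensitive channel gene Tmem63b at 114 ± 6.57, above Tmem63c at 94.7 ± 15.3. Piezo1, which endothelial cells make, had 26.2, 3.62, 3.89, 4.9 and 7.55 CPM, highest in female 1, where the endothelial genes were also highest. The ratio of Piezo2 to Piezo1 per length was 11.4 in female 1 and 46 to 86.9 in the others. Stom, a membrane protein that regulates acid channels, had 91, 37.2, 31, 42.4 and 41.7 CPM with the same library on top. Stoml3, needed for touch, had counts in a single library, with a range of 0 to 0.322 CPM. Asic3, the acid channel of nociceptors and muscle afferents, led the 4 ASIC genes with 41.6% ± 6.1 per length, but Asic2 and Asic1 overlapped with it at 32.4% ± 5.7 and 25.9% ± 3.34. Asic3 had 37.4, 73.6, 70.9, 66.2 and 64.9 CPM, with female 1 below the other 4. P2rx3 made up 90.1% ± 1.66 of the 7 P2X genes per length. P2rx2, its partner in heteromeric channels, had 1.1, 1.57, 0.299, 5.61 and 12.5 CPM, highest in the males. The adenosine receptor Adora1 stood at 104 ± 11.4 TPM and the ADP receptor P2ry1 at 74 ± 19.3. P2ry12, a receptor of glia and platelets, had 29.7 ± 7.13 TPM, and P2rx4 and P2rx7, ATP-gated channels common in immune and glial cells, 16.7 ± 1.2 and 15 ± 2.39 TPM.

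Receptors for fast transmitters included kainate, GABA and nicotinic genes. Grik1, the kainate subunit GluK1, led at 386 ± 33 TPM and made up 74.7% ± 3 of its family. The GABA-B subunits Gabbr1 and Gabbr2 stood at 294 ± 21 and 150.1 ± 13 TPM. Gria4 made up 50.2% ± 5.47 of the AMPA subunits. The NMDA subunit Grin1 had 101 ± 6.36 CPM, while its partners Grin2a and Grin2b were at 0 in all 5. Of other NMDA subunits, Grin3a had means of 55.9 CPM in females and 53.2 in males. Grin2d had 2.52 and 2.71 CPM and Grin2c 0.34 and 0.97 CPM in the same order. Htr3a, the serotonin-gated channel, had 65.2, 108, 97, 87.8 and 92.1 CPM, lowest in female 1, and overlapped per length with the nicotinic subunit Chrna6, at 179 ± 29.5 and 169.9 ± 14.7 TPM. Chrnb2 and Chrnb3, partners of Chrna6, stood at 48.8 ± 5.16 and 31.1 ± 2.5 TPM.

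Components of the CGRP receptor were low beside the ligand, with Calcrl at 14.8 ± 14.1 TPM against 2519.5 ± 102 for Calca. Calcrl, the receptor's membrane-spanning chain, had 45.9, 9.66, 8.2, 10.3 and 12.3 CPM, highest in female 1. Ramp1, the accessory chain that makes Calcrl a CGRP receptor, was at 0 in 4 libraries and had 11 counts in female 1. Ramp2, which makes it an adrenomedullin receptor, had 27.5, 16.2, 19.2, 15.5 and 12.3 CPM, and Crcp, an intracellular component, 32.5, 31.2, 26.8, 28.9 and 32.6 CPM. Tacr1, the substance P receptor, had 0 to 0.898 CPM, and the PACAP receptor Adcyap1r1 had 9.52, 11.1, 8.26, 6.9 and 9.52 CPM. The neuropeptide Y receptor Npy1r had 49, 23.6, 35.9, 27.4 and 23.8 CPM, and Npy2r 11.8, 11.8, 11.6, 30.6 and 14.6 CPM, highest in male 1. Calcrl and Ramp2 were highest in the library with the most endothelial RNA, and the part that RNA had in their levels was not tested.

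Opioid, cannabinoid, serotonin and adrenergic receptors were modest. Oprm1, the mu receptor, had 32.9, 32.8, 33.8, 23.1 and 33.8 CPM and Cnr1, the CB1 receptor, 44.9, 37.7, 37.7, 54.3 and 57.8 CPM, while Cnr2 was at 0 in all 5. Per length Oprm1 and Oprl1 overlapped at 16.1 ± 2.4 and 12.5 ± 0.384 TPM, and Oprd1, the delta receptor, stood at 7.68 ± 2.26. Oprk1, the kappa receptor, had 2.81, 4.95, 2.39, 4.77 and 8.63 CPM. Of the triptan targets, Htr1b had 22.9, 33.4, 34.7, 34.6 and 33.2 CPM and Htr1d 7.57, 8.52, 9.22, 9.22 and 17 CPM, highest in male 3. Htr2a and Htr4, receptors that excite nociceptors, stood at 18.8 ± 3.44 and 17.7 ± 2.88 TPM and were not separated from Htr1b.

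Receptors for inflammatory mediators were led by Ednrb, Il6st (gp130) and Mrgprd. Ednrb, which also served as a glial marker, Il6st and Mrgprd, which also served as a nociceptor marker, were close per length at 467 ± 33.4, 416 ± 47.9 and 404 ± 33.4 TPM. The lysophosphatidic acid receptor Lpar1, common in glia, stood at 274 ± 18.3 TPM, and S1pr3, a sphingosine phosphate receptor of nociceptors, at 221 ± 38.4. The thrombin receptor relative F2rl2 had 199 ± 27.5 TPM, whereas F2rl1 (PAR2), the protease receptor of pain research, had 0 to 0.903 CPM. The prostaglandin receptors Ptgir, Ptgdr and Ptger3 overlapped at 92.7 ± 15.4, 90.8 ± 8.2 and 84.1 ± 11.2 TPM. The bradykinin receptor Bdkrb2 had 13.7, 15.3, 11.9, 10.1 and 12.8 CPM and Bdkrb1 was at 0 in 3 libraries. S1pr1, an endothelial receptor, had 113, 35.9, 33.8, 45.6 and 37.4 CPM, highest in female 1. Among neurotrophic receptors Ret stood at 629 ± 60.8 TPM, Ngfr at 447 ± 84 and the leukaemia inhibitory factor receptor Lifr at 403 ± 60.6. Gfra3 and Gfra2 overlapped at 41.6% ± 3.35 and 40.5% ± 2.05 of the GFR alpha family.

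Genes of activity and stress were abundant in every library, and their sums were highest in sham female 2. The 27 immediate-early genes summed to 5255, 7000.1, 4563, 4461 and 4265 CPM and the 12 heat shock genes to 4476, 7350.5, 5509, 3724 and 3736 CPM. Single members divided between libraries, since 14 immediate-early genes were highest in female 1 and 11 in female 2, while 10 heat shock genes were highest in female 2. Fos had 738, 1303, 719, 805 and 729.5 CPM, Egr1 824, 1322, 770.2, 719 and 702 CPM and Jun 768, 1118, 719.8, 718 and 682 CPM, and female 2 was above the other 4 in all 3. The matricellular gene Ccn1 had 418, 684, 544, 349 and 382 CPM and the transcription factor Klf6 267, 447, 291, 175 and 185 CPM, with the same library on top. Among inducible chaperones Hspa1b had 883, 1733, 1209.8, 408 and 447 CPM, Dnajb1 189, 615, 314, 216 and 200.2 CPM and the co-chaperone Hsph1 440.5, 1056, 610.2, 417 and 469 CPM. Hspa1a and Hspa1b are near-identical copies whose shared reads are not counted. Hspa8, a constitutive chaperone, had 704, 851, 819, 737 and 728 CPM, also highest in female 2. The injury gene Atf3 had 132, 149, 112, 125 and 88.4 CPM, and Sox11 23, 20.8, 16.6, 45.1 and 27.6 CPM, highest in male 1. Sprr1a, which damaged axons switch on, had 0.061, 0, 0, 4.77 and 2.58 CPM, higher in the males. Genes of MHC class I presentation summed to 1384, 1313, 931, 712 and 655 CPM and interferon-stimulated genes to 898, 900.4, 732, 578 and 693 CPM. B2m, the light chain of MHC class I, had 515, 491, 344, 217 and 197 CPM, H2-D1 319, 324, 245, 187 and 169.6 CPM and H2-K1 238, 186, 137, 122 and 107 CPM. In these 3 genes each female library lay above both males. Among interferon-stimulated genes Ifi27 led at 281 ± 12 TPM, followed by the chemokine Cxcl10 at 129 ± 65.8, which had 45.7, 131, 74.4, 40.7 and 60.7 CPM, and by Ifit2 at 76.7 ± 23.3.

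Spread between libraries was wider at low levels and in genes that were high in sham female 1. For 9853 genes with a mean of at least 10 CPM the median CV was 0.136. It was 0.118 for the pan-neuronal genes at that level, 0.107 for satellite glia, 0.129 and 0.0815 for peptidergic and nonpeptidergic nociceptors, 0.505 for the 6 itch markers and 1.25 for 13 endothelial genes. At 1 to 2 CPM the median CV was 0.675, where counting alone would give 0.208, and 31.8% of those 1071 genes were at 0 in at least 1 library. Of the genes at 10 CPM or more, 228 (2.31%) had a CV above 0.5, and 185 of these were highest in female 1, although female 1 was highest in 1910 of all 9853. Without female 1 the number was 71 of 9811. The named genes of highest CV were Cxcl12, a chemokine, at 371, 15.3, 12, 32.7 and 34.7 CPM, the endothelial adhesion receptor Adgrl4 at 265, 12.4, 13.1, 23.1 and 19.6 CPM, and Nostrin, Robo4, Cd93, Eng, Myof, Acvrl1, Pecam1, Tinagl1, Tm4sf1 and Cdh5, most of them known from endothelium. Robo4, Cd93, Eng and Acvrl1, vascular receptors, had ranges of 0.479 to 83.4, 8.33 to 251, 6.28 to 118 and 4.47 to 73.3 CPM. Female 1 was highest for all 12. Libraries of the same sex differed by more than sampling noise, with 14.4 to 42.4 for chi-square per degree of freedom in the 4 pairs, so none was treated as a library deposited again. This comparison does not tell separate animals from repeat preparations.

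**Figure D5:**
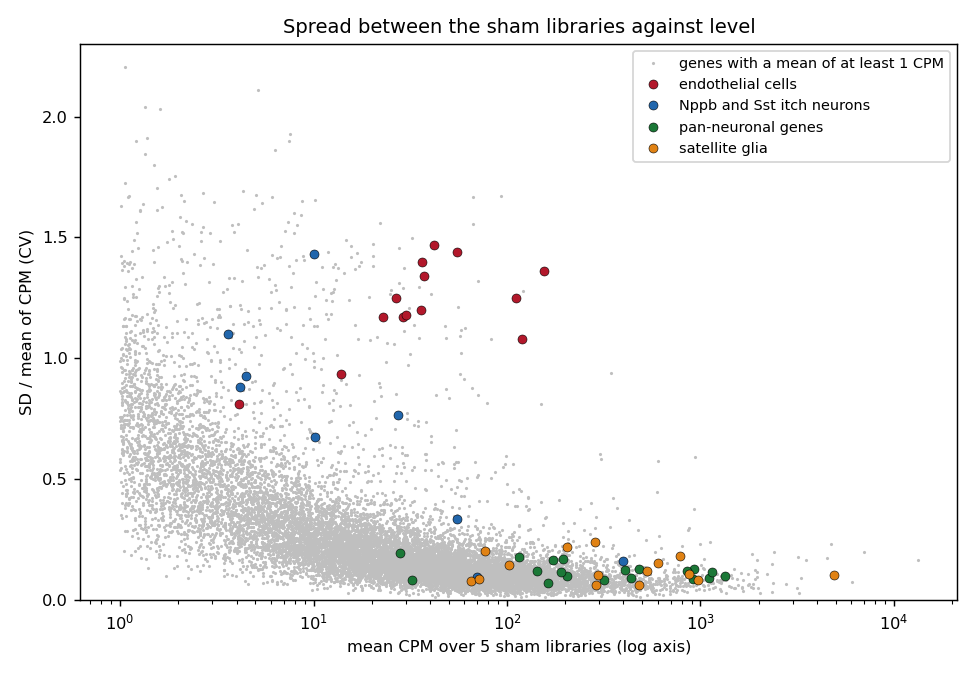
Spread between the 5 sham libraries (SD over mean of CPM) against mean CPM (log axis) for genes with a mean of at least 1 CPM, with 4 marker lists in colour. The endothelial genes at 10 CPM or more have a median CV of 1.25, whereas pan-neuronal and satellite glia genes have medians of 0.118 and 0.107.

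Sex is the factor that the labels vary within sham, and the test called the genes that define it. In edgeR's quasi-likelihood test 5 of 15689 genes passed an adjusted p of 0.05 (0.0319% of those tested), 1 higher in females (0.00637%) and 4 lower (0.0255%). Xist, the RNA of X inactivation, had 662, 611, 460.3, 0.193 and 0.0599 CPM. The Y genes Ddx3y, a helicase, and Eif2s3y, a translation factor, had 0, 0, 0, 78 and 68.9 CPM and 0, 0, 0, 38.6 and 47.4 CPM. The demethylases Uty and Kdm5d had 0, 0, 0, 35.1 and 31.9 CPM and 0, 0.0604, 0, 25.1 and 30.2 CPM. These values match the labelled sex of all 5 libraries. The adjusted p was 5.76e-07 for Xist and between 6.08e-05 and 0.000253 for the Y genes. Outside X and Y no gene passed, and 752 of all genes had an unadjusted p under 0.05. DESeq2 called 50 outside X and Y. On simulated data it made 22 false calls against 2 by edgeR, but it also called more of the changed genes. Its share was 16.4% at 1.5-fold, 34.8% at 2-fold and 57.8% at 4-fold, against 4.48, 24.6 and 48.4% for edgeR. The direction of the change had to be right for edgeR only, so the shares are not strictly alike. Which of the 50 calls are true was not tested.

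Outside the sex chromosomes, the genes of small p in the same edgeR test included stress, MHC and itch genes beside genes of other kinds. Hspa1a differed by 1.58 ± 0.21 (log2 female minus male ± SE, adjusted p = 0.0809), Hspa1b by 1.58 ± 0.23 (adjusted p = 0.14) and B2m by 1.13 ± 0.17 (adjusted p = 0.14). Lpar6, a lysophosphatidic acid receptor, had 35.8, 42.4, 31.5, 9.93 and 14 CPM, a difference of 1.62 ± 0.24 (adjusted p = 0.14). Il31ra differed by -2.01 ± 0.28 (adjusted p = 0.111), Nppb by -2.60 ± 0.49 and Nts by -3.24 ± 0.60 (adjusted p = 0.386 for both). In each of these 7 genes the libraries of the sexes did not overlap. Genes of small p were picked from the same comparison, so that adds no support. Genes outside the lists came before Nppb and Nts by p: Pcdhb9 and Lypd1, higher in females, and Lrp2 and Tyrp1, lower. Their adjusted p was 0.179, 0.285, 0.274 and 0.357. Of all 15689 genes tested, 752 had an unadjusted p under 0.05. Of the 9 itch class genes 8 did and none passed, with a median log2 difference of -2.01 beside 0.02 over all genes tested. For MHC class I genes 5 of 11 had an unadjusted p under 0.05, with a median of 0.66, and none passed. Members of a list can vary together, and the lists were chosen with earlier results of these data known. These counts are thus no test of a sex difference. In the pan-neuronal, peptidergic, nonpeptidergic and sodium channel lists no gene had an unadjusted p under 0.05, with medians of -0.10, 0.09, -0.09 and -0.05. Leaving out sham female 1 raised the calls to 13, among them Hspa1a, Hspa1b, B2m and Il31ra. With 2 male libraries the precision was limited. On simulated counts for the same 15689 genes, the share of changed genes that edgeR found was 4.48% at 1.5-fold, 24.6% at 2-fold and 48.4% at 4-fold.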

How the data were processed

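The authors deposited unnormalized whole-number counts of reads for each gene, 1 library per file, made with strand-specific settings per the labels' protocols. The submitters' processing notes name Trimmomatic 0.35, STAR 2.7.1a and RSEM, with the build GRCm38 (mm10). For the annotation, the release was not given in the sources used. The 4 rows that name no gene held 19.3 to 21.5% of counts and were left out. Multimapping reads are not counted to a gene, so near-identical copies are uncertain. Library totals lay between 15510643 and 16703797.

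CPM and level per length (TPM) were computed from these counts, with merged exon lengths from the reference annotation for 55141 of 55401 genes, in Python 3.11.15 (pandas 2.3.3, numpy 2.4.6). The sexes were compared with edgeR 4.0.16 in R 4.3.3 (filterByExpr, TMM, quasi-likelihood test, Benjamini-Hochberg adjusted p under 0.05), and SE was the log2 change over the square root of F. The fit was tested on simulated data. Alternatives were DESeq2 1.42.0 and its size factors, no filter or 1 CPM in 2 libraries, the replicate block, left-out libraries, other scalings and other lengths.

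The members and lists were chosen with earlier results of these data known. The naming rule took the 10 genes of highest mean CPM, the study markers, up to 8 leading members of each list, defining members that were absent, members with a CV above 0.5 at 5 CPM or more, the 12 genes of highest CV and 5 genes per direction between the sexes. Further members were named for their known role after their values had been seen. Of 706 names in 49 lists, 704 were found. Some list members are not reported here.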

Additional observations from a re-analysis of the deposited data

Results flagged for a closer look

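In a group of 5 libraries a value stood out when its gap to the nearest other library was an unusually large part of the whole range, which chance does in about 1 of 20 groups. Of 309 values above 0 in 2 or more libraries, 59 stood out in this way, and of the 499 list genes with a mean of at least 1 CPM 65 (13%) did, 35 of them for a high value in sham female 1. Some of the 309 values were named for a high CV or after being seen, and endothelial genes were high together in sham female 1. The rate of 1 in 20 is therefore no yardstick for these counts. The endothelial sum of 2339.4 CPM in sham female 1 stood apart from 226 to 422 CPM elsewhere, and its neutrophil and mast cell sum of 53.8 CPM from 0.838 to 5.48 CPM. In sham male 3 the sodium channel sum of 6332.6 CPM stood above 5691.1 to 5874.2 CPM, and the sum of opioid and cannabinoid receptors of 119 CPM above 95.8 to 98.8 CPM. Sham male 1 had the fewest gene counts, 15510643 against 16381607 to 16703797.

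Single genes for which sham female 1 alone was high, with its CPM, included genes known from vessels and receptors that endothelium carries: Acvrl1 (73.3), Adgrl4 (265), Calcrl (45.9), Cd93 (251), Cdh5 (197), Cldn5 (89), Cxcl12 (371), Eng (118), Flt1 (530), Myof (54), Nostrin (40), Pecam1 (152), Piezo1 (26.2), Robo4 (83.4), S1pr1 (113), Slc2a1 (351), Slco1a4 (360), Tek (70.8), Tinagl1 (55.9), Tm4sf1 (99.1) and Vwf (112). They also included glial, stromal, immune and other genes: Acta2 (0.733), Apod (68.6), Cldn19 (2.87), Des (0.61), Grp (0.183), Hoxd8 (15.5), Ifit2 (108), Lyz2 (30.6), Mag (1.04), Mal (320), Ramp1 (0.671), S100a8 (17.4), S100a9 (33), Stom (91), Trpv4 (4.21) and Tyrobp (2.38). Sham female 1 alone was low in Asic3 (37.4), Htr1b (22.9) and Nefm (1154.3).

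The other libraries stood apart in fewer genes. Sham female 2 stood above the others, by CPM, in Egr1 (1322.2), Fos (1302.8), Gria4 (123), Jun (1117.8), Penk (2.23) and Prl (1.15). Sham female 2 stood below the others, by CPM, in Chrna6 (103), Mrgprd (268) and Slc17a8 (8.03). Sham female 3 stood above the others, by CPM, in Calcb (127), Cck (0.299) and Nmb (50.9). Sham female 3 stood below the others, by CPM, in Cacna1b (213) and Kcna6 (211). Sham male 1 stood above the others, by CPM, in Npy (0.451), Npy2r (30.6), Nts (35.1) and Stoml3 (0.322). Sham male 1 stood below the others, by CPM, in Oprm1 (23.1). Sham male 3 stood above the others, by CPM, in Col1a2 (116), Gh (0.779) and Htr1d (17). Npy, Grp, Cck, Gh, Stoml3, Ramp1, Des and Tyrobp had counts in a single library, where the gap is the whole range by construction, so these 8 are listed for their values and no chance rate applies to them.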

How the results depend on the processing

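The satellite glia sum stayed above the pan-neuronal sum, and the endothelial sum below both, under TMM scaling, without mitochondrial genes and without any single library. Without Apoe, an alternative chosen after seeing the data, the satellite glia sum was 5637.4 CPM, below the pan-neuronal 9165.4 CPM. In level per length, satellite glia summed to 16676 TPM and pan-neuronal genes to 13810.4 TPM. The endothelial mean of 719.8 CPM fell to 315 CPM without sham female 1. By CPM in place of the level per length, 33 of 49 lists kept their leading gene, and with the longest transcript as length 44 did. Calls between the sexes numbered 5, against 57 with DESeq2, 224 without a low-count filter and 5 to 13 with a library left out, 13 without sham female 1 and 8 without sham female 3, and the cause was not tested. With the replicate block 7 were called, among them Hspa1a and Hspa1b. The sexes share replicate numbers 1 and 3, and deviations from the mean of each sex correlated at -0.027 and -0.019. With 2 male libraries the male deviations mirror each other, so both values rest on the same male profile. They do not show whether the shared numbers mark a batch. Of 790 values for 79 genes compared between the sexes, 84 passed the threshold where the reported value did not, and 0 reversed. With a lone male library left, it was assumed to vary as the females do. At 1 to 2 CPM counting alone gives a CV of 0.208, beside 0.675 measured, and 0 counts in all 5 libraries allow up to 0.0367 CPM (3 counts, counting error only).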
